A study of Homo sapiens with 15 samples.

Results

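Knockdown of PDK1 by the hairpin shPDK1#1 was compared with the control shCtrl in osteosarcoma stem cells (OSCs), which are 143B cells grown as tumorspheres. The comparison takes all 3 shPDK1#1 libraries and all 3 shCtrl libraries, 6 of the 15 libraries of the series, and every gene that passed a filter on low counts. The other libraries are 3 of OSCs with a second hairpin, shPDK1#2, which share the same table and are used here only beside shPDK1#1, and those of OSCs and adherent cells without a hairpin, which are not analysed here. The stated purpose of the series was to look for how PDK1 acts on stemness in these cells.

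143B is an established human osteosarcoma line. Per the labels, the genotype of the shCtrl libraries is WT and that of the others is shPDK1_1 or shPDK1_2. All 3 groups grew in serum-free tumorsphere medium with EGF and basic FGF, so growth factor and sphere culture are shared by both sides of the comparison. The sources used here do not give the sequence of shCtrl, so whether it expresses a hairpin is not known. Cells were infected with virus made in HEK293T cells, and selection or cloning afterwards is not given in the sources used here. The labels do not say that libraries of a group came from separate cultures, so a p-value measures only the spread between these libraries. As RNA came from whole spheres, fewer cells of a type and less RNA per cell cannot be told apart.

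Pyruvate dehydrogenase (PDH) admits pyruvate from glycolysis into the mitochondrial TCA cycle, and the PDH kinases PDK1 to PDK4 phosphorylate it and switch it off. PDK1 is itself a target of the hypoxia-inducible factors, which also drive glucose uptake, glycolysis and angiogenic factors. Tumor cells with active PDK1 tend to turn pyruvate into lactate rather than oxidize it.

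Counts per library summed to between 8073103 and 9874360 with shCtrl and between 8076991 and 11256578 with shPDK1#1. After the filter, 14597 genes were tested. The chi-square of a pair of shCtrl libraries, divided by its degrees of freedom, was 1.98 to 2.09, above sampling noise. For the shPDK1#1 libraries this value was 1.95 between replicates 1 and 3, but 3.38 and 3.39 for the pairs with replicate 2. The deviations of shPDK1#1 replicate 2 from its group mean correlated with the GC content of the genes across 10040 genes (r = 0.57), and those of shPDK1#1 replicates 1 and 3 did so with the opposite sign (r = -0.36 and -0.26), as deviations from a shared mean must balance. In shPDK1#2, r was -0.28, 0.42 and -0.20 for replicates 1, 2 and 3, while it lay between -0.10 and 0.07 in shCtrl. The counts of the gene lists that moved without shPDK1#1 replicate 2 are given beside each list.

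Markers of the osteosarcoma lineage were high in every library, with a summed level of 8948 to 9184 CPM with shCtrl and 8703.5 to 9306 CPM with shPDK1#1 over 10 markers, and IBSP, which encodes bone sialoprotein, was at 0. Of 6 lymphocyte markers, 4 were at 0 and the others had at most 3 counts in any library. CDH5, which marks endothelium, and AIF1, which marks myeloid cells, were at 0, and PTPRC, ITGAM, CSF1R, VWF and CLDN5 had at most 3 counts. Not all myeloid markers were absent. Of the 8 on that list, 2 were tested and 0 were called. Their summed level was 39.8 to 45.7 CPM with shCtrl and 38.2 to 41.0 CPM with shPDK1#1 over the 8.

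PDK1 was measured first, as it is the target of the hairpin. The gene lies on GRCh38 chr2:172555373-172608669, plus strand. It stood at 46.7, 44.7 and 44.4 CPM (counts scaled to the library total) in shCtrl replicates 1, 2 and 3 and at 29.0, 27.8 and 27.3 CPM in the shPDK1#1 libraries. All 3 shPDK1#1 libraries were below all 3 shCtrl libraries. PDK1 was left at 62.0% of the shCtrl level (log2 fold change -0.69, SE 0.083, adjusted p = 7.04e-06), and was called in all 14 alternative analyses. With shPDK1#2 it stood at 18.3, 21.5 and 19.6 CPM, so that shPDK1#1 lowered PDK1 less than shPDK1#2 (difference -0.50 for shPDK1#2 minus shPDK1#1 on the log2 scale, adjusted p = 0.000237).

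The other PDH kinases did not pass the test. PDK3 was at 83.3, 84.6 and 79.0 CPM with shCtrl and 90.6, 75.4 and 81.6 CPM with shPDK1#1 (log2 fold change -0.0017, adjusted p = 0.995). PDK2 was at 12.6, 8.13 and 7.83 CPM with shCtrl and 6.97, 9.53 and 9.29 CPM with shPDK1#1 (adjusted p = 0.804), and 38.6% of its exon bases lie opposite exons of a gene on the other strand. PDK4 had 2 to 11 counts in these libraries and was not tested. Of the 13 tested genes for the PDH subunits, their kinases and phosphatases and the mitochondrial pyruvate carrier, PDK1 was the 1 called (median log2 fold change -0.0017, against 0.0025 over all genes tested).

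The shPDK1#1 hairpin changed 446 genes at an adjusted p under 0.05, 3.06% of those tested, of which 236 were higher (1.62%) and 210 lower (1.44%). An unadjusted p under 0.05 was met by 2110 genes (14.5%), with 1086 higher (7.44%) and 1024 lower (7.02%). The shares of 1.62% and 1.44% are the background for the counts of rises and falls in every gene list that follows. For lists of genes at high levels they understate the background, since the share called rose with the level. Most differences were small. The median size was 0.28 on the log2 scale for the genes that rose and 0.32 for those that fell, 64 of the 446 passed 1.5-fold and 25 passed 2-fold. The 3 shPDK1#1 libraries did not overlap the 3 shCtrl libraries in 441 of the 446 genes, and in 2817 of all genes tested (19.3%). Protein-coding genes made up 426 of the 446.

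The share of genes called depended on their level. Of the 92 genes with a mean over 1000 CPM, 35 were called (38.0%), with a median change of 0.16, whereas 27 of the 4123 genes between 1 and 10 CPM were called (0.655%), with a median change of 1.12. When the genes were cut into 5 classes of equal size by transcript length, 57 rose and 20 fell in the shortest class, 42 and 29 in the next, 48 and 34 in the middle, 52 and 41 in the next and 37 and 86 in the longest, differences that were not tested. The count of 446 depended on single libraries. It was 270 without shCtrl replicate 1, 281 without shCtrl replicate 2, 245 without shPDK1#1 replicate 3 and 508 without shPDK1#1 replicate 2, of which 359 were among the 446.

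**Figure D1:**
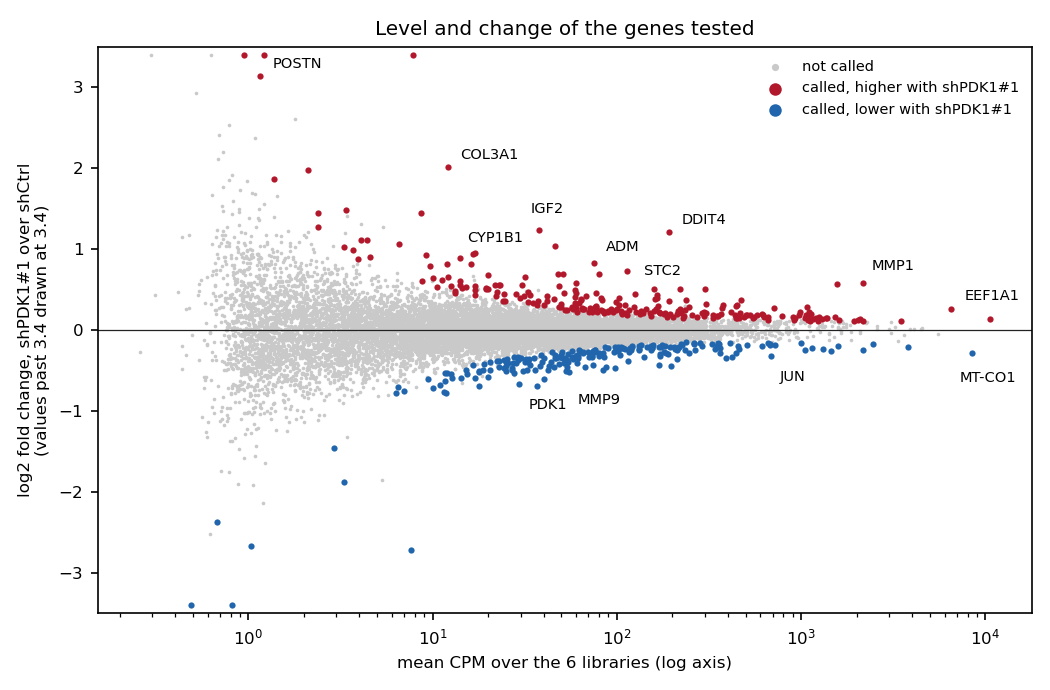
Each point is a gene tested, placed by its mean CPM over the 6 libraries (x, log axis) and its log2 fold change with shPDK1#1 over shCtrl (y, values past 3.4 drawn at 3.4). Red and blue points are the 236 genes called higher and the 210 called lower, and the called changes narrow from left to right as the level rises.

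The largest rise among called genes with a mean of at least 10 CPM was that of COL3A1, the fibrillar collagen type III chain, from 4.6, 4.12 and 5.84 CPM in the shCtrl libraries to 17.3, 19.8 and 20.9 CPM with shPDK1#1 (log2 fold change 2.02, SE 0.14, adjusted p = 1.64e-10). The 12 largest rises and the 12 largest falls were taken only from called genes whose groups did not overlap. That the groups are separate in these genes is therefore no further support. IGF2, a fetal growth factor that signals through the IGF1 receptor, rose from 23.2, 23.3 and 20.7 to 52.4, 55.8 and 51.2 CPM (log2 fold change 1.24, SE 0.082, adjusted p = 1.31e-10). The groups lay far apart, although 38.8% of the sequence of IGF2 is shared with the readthrough gene INS-IGF2 and its neighbors, so its counts are uncertain.

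DDIT4, which encodes the mTORC1 inhibitor REDD1, stood at 118, 115 and 115 CPM with shCtrl and at 263, 275 and 268 CPM with shPDK1#1 (log2 fold change 1.21, SE 0.045, adjusted p = 7.23e-16). Replicates of each group nearly coincided and the groups did not come near each other. CYP1B1, a cytochrome P450 that is a target of the aryl hydrocarbon receptor, moved from 31.8, 29.5 and 29.4 to 57.3, 65.3 and 63.5 CPM (log2 fold change 1.04, SE 0.075, adjusted p = 5.63e-10). NNMT, which methylates nicotinamide, moved from 11.6, 10.4 and 11.8 to 21.8, 20.5 and 22.8 CPM (log2 fold change 0.95, SE 0.11, adjusted p = 5.24e-06). The lowest shPDK1#1 library was above the highest shCtrl library for both.

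STC2, a secreted glycoprotein of the stress response, was at 84.7, 86.0 and 86.7 CPM with shCtrl and 143, 144 and 139.9 CPM with shPDK1#1 (log2 fold change 0.73, SE 0.052, adjusted p = 5.63e-10). HILPDA, a lipid droplet protein induced by hypoxia, was at 39.6, 36.6 and 40.6 CPM and 59.1, 63.9 and 66.1 CPM (log2 fold change 0.70, SE 0.074, adjusted p = 8.23e-07). ARRDC3, an arrestin family member, was at 65.3, 57.2 and 61.4 CPM and 103, 92.2 and 101 CPM (log2 fold change 0.69, SE 0.067, adjusted p = 2.12e-07). In these 3 genes the replicates were tight. NTN4, a laminin-related netrin of basement membranes (0.81, adjusted p = 0.000471), and C2CD4A (0.82, adjusted p = 7.87e-05) rose as well, from levels near 10 CPM, and ANKRD37 and ADM, which complete the 12 largest rises, are described with the hypoxia genes.

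Of 21 tested genes of the hypoxia response, 8 rose and 0 fell, where 1.62% of all genes tested were called higher. The median log2 fold change of the list was 0.16, and 20 of the 21 were above 0. Without shPDK1#1 replicate 2 it was 9 that rose, with the mitophagy receptor BNIP3L (0.24, adjusted p = 0.0140) added, and without shCtrl replicate 2 it was 7. The promoters of a few of these genes are shown because the hypoxia-inducible factors bind sites with the core ACGTG. Below are the 250 bases before the RefSeq start of transcription, 5′ to 3′ on the strand of the gene, with ACGTG or its reverse complement in capitals: DDIT4 at chr10:72273674-72273923 (plus strand), ANKRD37 at chr4:185396591-185396840 (plus strand) and LOX at chr5:122078260-122078509 (minus strand), all GRCh38.p14.
DDIT4: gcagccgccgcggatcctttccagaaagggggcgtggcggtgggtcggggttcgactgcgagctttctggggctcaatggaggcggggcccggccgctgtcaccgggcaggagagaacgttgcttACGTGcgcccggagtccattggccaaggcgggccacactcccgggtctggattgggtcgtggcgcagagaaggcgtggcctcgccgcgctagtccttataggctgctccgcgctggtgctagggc
ANKRD37: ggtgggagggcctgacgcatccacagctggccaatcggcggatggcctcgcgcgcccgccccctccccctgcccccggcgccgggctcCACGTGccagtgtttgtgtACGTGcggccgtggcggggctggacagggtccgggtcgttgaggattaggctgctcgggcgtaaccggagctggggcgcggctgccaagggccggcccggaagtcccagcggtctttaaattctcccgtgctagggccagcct
LOX: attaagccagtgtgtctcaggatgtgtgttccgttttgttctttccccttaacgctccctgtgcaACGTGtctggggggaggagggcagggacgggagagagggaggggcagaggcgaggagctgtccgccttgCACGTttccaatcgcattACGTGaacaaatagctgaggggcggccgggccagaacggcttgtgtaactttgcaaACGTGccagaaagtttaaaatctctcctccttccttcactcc
DDIT4 holds 1 such match, 125 bases before the start, ANKRD37 holds 3, of which 2 overlap in a CACGTG, and LOX holds 4. These 3 genes were chosen after their matches and values were seen. In windows of 250 bases before to 50 after the start, read on both strands, ACGTG was in 11 of the 18 hypoxia genes with a window, in 30.9% of the genes that rose, in 26.3% of those that fell and in 26.7% of all genes tested that had a window. Of the 7 called hypoxia genes with a window, 4 held ACGTG, and ADM, EGLN3 and PFKFB3 held 0 matches. A match is a string of letters and not a measured binding site.

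The hypoxia genes that rose encode secreted factors, enzymes and regulators. ADM, the vasodilator peptide adrenomedullin, was at 53.2, 52.7 and 56.2 CPM with shCtrl and 90.8, 95.8 and 99.95 CPM with shPDK1#1 (log2 fold change 0.83, SE 0.065, adjusted p = 2.66e-09). VEGFA, the main angiogenic factor, was at 142, 135 and 142 CPM and 177, 189 and 182 CPM (log2 fold change 0.39, SE 0.051, adjusted p = 2.66e-05). For both, all shPDK1#1 libraries were above all shCtrl libraries. LOX, which crosslinks collagen and elastin, went from 123, 135 and 135 to 186, 184 and 186 CPM (log2 fold change 0.50, SE 0.051, adjusted p = 4.33e-07), and EGLN3, a prolyl hydroxylase that marks the hypoxia-inducible factors for decay, from 37.4, 38.5 and 42.5 to 57.8, 58.0 and 56.6 CPM (log2 fold change 0.55, SE 0.070, adjusted p = 1.95e-05). The groups were again apart.

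BHLHE40, a transcriptional repressor of the clock and of hypoxia, was at 250.3, 246 and 251 CPM with shCtrl and 351, 355 and 359 CPM with shPDK1#1 (log2 fold change 0.51, SE 0.038, adjusted p = 1.24e-09). ANKRD37, an ankyrin repeat protein, was at 10.7, 8.63 and 10.1 CPM and 19.0, 19.1 and 16.6 CPM (log2 fold change 0.89, SE 0.14, adjusted p = 0.000203). The libraries of the groups were separate in both genes, but 40.4% of the exon bases of ANKRD37 lie opposite exons of the other strand, and the strandedness of the counting is not given in the sources used here. PFKFB3, whose product makes the activator of phosphofructokinase, rose by little (0.18, adjusted p = 0.00705), and was not called without shCtrl replicate 2 (adjusted p = 0.0745). DDIT4, described above, was also among the 8. Members that did not pass the test included BNIP3 (log2 fold change 0.06), NDRG1 (-0.01), CA9 (0.14) and P4HA1 (0.13).

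Of 21 tested genes that take glucose to lactate, 7 rose (against 1.62% of all genes tested) and 0 fell, with a median log2 fold change of 0.057. Several members are above 100 CPM. The share called in either direction was 7.54% for genes at 100 to 1000 CPM and 38.0% for those over 1000 CPM. SLC2A3, the high-affinity glucose transporter GLUT3, was at 177, 184 and 184 CPM with shCtrl and 266, 252 and 257 CPM with shPDK1#1 (log2 fold change 0.51, SE 0.046, adjusted p = 5.76e-08). HK2, which traps glucose in the cell by phosphorylation, was at 141, 137 and 142 CPM and 189, 184 and 194 CPM (log2 fold change 0.44, SE 0.046, adjusted p = 8.23e-07). SLC2A1, the transporter GLUT1, was at 330.3, 329.6 and 349 CPM and 411, 430.4 and 413 CPM (log2 fold change 0.31, SE 0.039, adjusted p = 1.11e-05). The groups did not overlap in any of these 3 genes, which stand at the entry of the pathway.

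Further down, ALDOC (0.51, adjusted p = 0.0107), ENO2 (0.27, adjusted p = 0.0287), PGK1 (0.12, adjusted p = 0.0317) and GAPDH (0.11, adjusted p = 0.0212) rose by less or from lower levels. LDHA, which reduces pyruvate to lactate, had a log2 fold change of 0.05 (adjusted p = 0.609), PKM of 0.01 (adjusted p = 0.922) and the lactate exporter SLC16A3 of -0.07 (adjusted p = 0.715). The count of 7 stood without shPDK1#1 replicate 2 but fell to 3 without shCtrl replicate 1 or without shPDK1#1 replicate 3 and to 4 without shCtrl replicate 2. ALDOC was not called without shCtrl replicate 1 or shPDK1#1 replicate 3 (adjusted p = 0.110 and 0.0659), ENO2 without shCtrl replicate 1 or 2 or shPDK1#1 replicate 1 or 3 (adjusted p = 0.165, 0.156, 0.135 and 0.0970) and GAPDH without shCtrl replicate 1 or 2 or shPDK1#1 replicate 3 (adjusted p = 0.0630, 0.114 and 0.0694). PGK1 was not called without shCtrl replicate 1, 2 or 3 or shPDK1#1 replicate 1 or 3 (adjusted p = 0.140, 0.119, 0.0502, 0.0850 and 0.154) and with only the 6 compared libraries in the fit (adjusted p = 0.0571). SLC2A3, HK2 and SLC2A1 were called in all 14 alternatives.

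The 12 largest falls, also taken only from called genes whose groups did not overlap, included PDK1 itself. SEMA5A, a semaphorin that guides axons and vessels, went from 33.8, 40.1 and 34.9 CPM in the shCtrl libraries to 21.8, 23.7 and 23.0 CPM with shPDK1#1 (log2 fold change -0.67, SE 0.10, adjusted p = 0.000189). MMP9, the gelatinase B that degrades basement membrane collagen, went from 46.7, 49.9 and 48.6 to 28.7, 37.0 and 30.1 CPM (log2 fold change -0.60, SE 0.093, adjusted p = 0.000225). ELMOD1, a GTPase-activating protein for ARF family proteins, went from 22.5, 21.7 and 21.9 to 15.9, 12.5 and 12.9 CPM (log2 fold change -0.69, SE 0.12, adjusted p = 0.00143). Every shPDK1#1 library was below every shCtrl library in these 3 genes. MDGA1, a membrane-anchored adhesion protein of the immunoglobulin superfamily, went from 15.3, 13.3 and 15 to 8.09, 8.90 and 8.66 CPM (log2 fold change -0.76, SE 0.15, adjusted p = 0.00382), and TIE1, a receptor tyrosine kinase best known in endothelium, from 20.9, 19.9 and 20.1 to 12.7, 14.7 and 13.2 CPM (log2 fold change -0.58, SE 0.11, adjusted p = 0.00312). Both were separate between the groups as well. The summed level of 6 endothelial markers was 2.43 to 3.34 CPM with shCtrl and 1.36 to 2.4 CPM with shPDK1#1, far below that of TIE1.

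The remaining large falls were closer to the threshold. The zinc finger gene ZNF367 fell from 12.6, 13.9 and 13.9 to 6.72, 9 and 9.29 CPM (log2 fold change -0.68, SE 0.15, adjusted p = 0.00765), with shPDK1#1 replicate 1 the lowest. CLCF1, a cytokine of the CNTF family, fell from 15.7, 14.8 and 12.1 to 9.20, 9.11 and 9.20 CPM (log2 fold change -0.63, SE 0.14, adjusted p = 0.0116), with the 3 shPDK1#1 libraries almost equal. NRG2, a ligand of the ERBB receptors, fell from 14.8, 15.3 and 16.5 to 6.72, 10.9 and 12.6 CPM (log2 fold change -0.60, SE 0.16, adjusted p = 0.0410), and its shPDK1#1 replicate 1 lay well below the other two. CCDC69 had a log2 fold change of -0.72 (adjusted p = 0.0124). The readthrough gene STAG3L5P-PVRIG2P-PILRB (-0.78, adjusted p = 0.00760) shares 89.3% of its sequence with the genes it spans, so its value is uncertain. DUSP8, the last of the 12, is described with the early genes.

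Calls of these genes rested on single libraries. CCDC69 was not called without shCtrl replicate 1 or 2 or shPDK1#1 replicate 3 (adjusted p = 0.0564, 0.0947 and 0.106), CLCF1 without shCtrl replicate 1 or 2 or shPDK1#1 replicate 3 (adjusted p = 0.0848, 0.0594 and 0.0512) and NRG2 without shCtrl replicate 1, 2 or 3 or shPDK1#1 replicate 1 (adjusted p = 0.0919, 0.110, 0.150 and 0.200). ZNF367 was not called without shPDK1#1 replicate 1 (adjusted p = 0.0513), and STAG3L5P-PVRIG2P-PILRB without shCtrl replicate 2 (adjusted p = 0.124). SEMA5A, MMP9, ELMOD1, MDGA1 and TIE1 were called in all 14 alternatives.

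**Figure D2:**
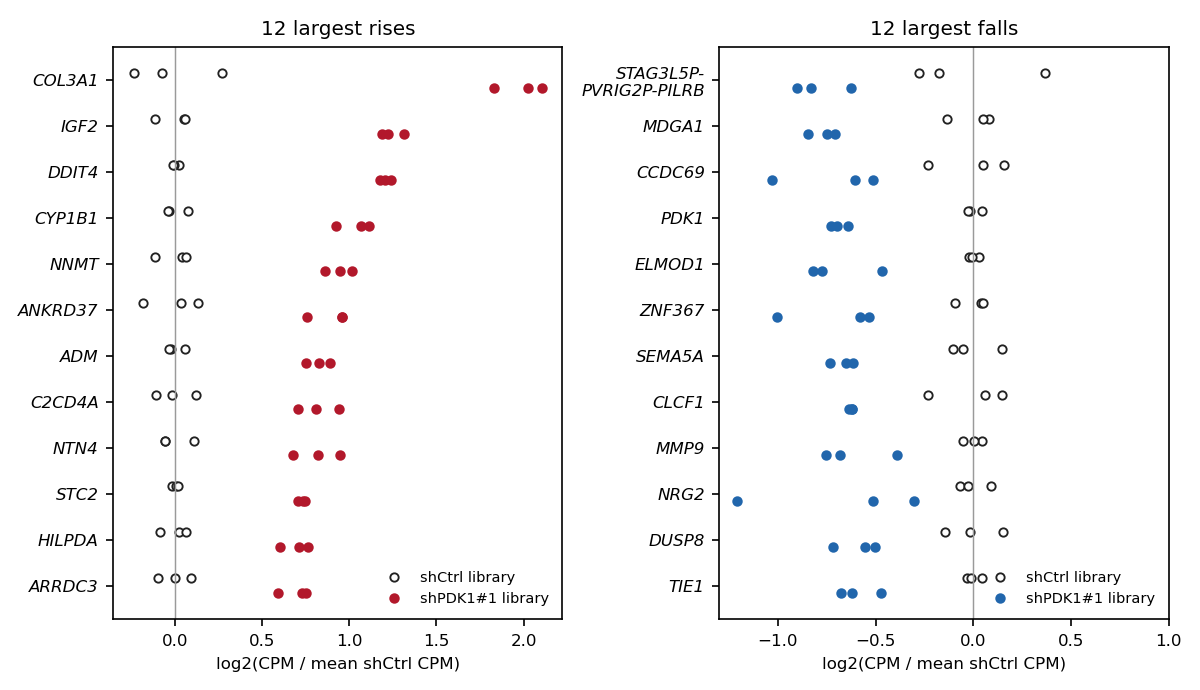
Points are the log2 ratio of the CPM in each library to the mean CPM of the 3 shCtrl libraries, for the 12 largest rises (left) and the 12 largest falls (right) among called genes with at least 10 CPM and no overlap of groups. Open circles are shCtrl libraries and filled circles shPDK1#1 libraries, which lie to the right of the shCtrl libraries in every rise and to the left in every fall, as the rule for choosing the genes required.

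Immediate early genes are transcription factors and regulators that growth factor and stress signals switch on within minutes, without new protein synthesis, and the AP-1 factors FOS, JUN and ATF3 are among them. Of 26 tested genes of this list, 8 fell and 2 rose, with a median log2 fold change of -0.052, where 1.44% of all genes tested were called lower. Among AP-1 genes, JUN stood at 768, 753 and 767 CPM with shCtrl and 587, 653 and 598 CPM with shPDK1#1 (log2 fold change -0.32, SE 0.042, adjusted p = 3.76e-05). FOSB stood at 49.4, 46.9 and 51.7 CPM and 33.1, 40.6 and 34.8 CPM (log2 fold change -0.44, SE 0.087, adjusted p = 0.00337). ATF3, a stress-induced member of the family that binds as a dimer with JUN, stood at 31.7, 31.5 and 31.9 CPM and 23.6, 19.7 and 24.2 CPM (log2 fold change -0.49, SE 0.10, adjusted p = 0.00414). All shPDK1#1 libraries were below all shCtrl libraries in the 3 genes, and the 3 shCtrl values of ATF3 were almost equal.

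JUND stood at 115, 114 and 117 CPM with shCtrl and 89.1, 102 and 89.1 CPM with shPDK1#1 (log2 fold change -0.30, SE 0.062, adjusted p = 0.00460), and FOS at 51.2, 56.8 and 53.9 CPM and 43.4, 44.5 and 41.4 CPM (log2 fold change -0.33, SE 0.074, adjusted p = 0.0113). Both were lower in every shPDK1#1 library. The zinc finger factors EGR1 (-0.33, adjusted p = 0.00136), KLF6 (-0.33, adjusted p = 3.86e-06) and KLF2 (-0.46, adjusted p = 0.000683) fell as well. KLF2 went from 74.1, 78.7 and 81.6 to 49.9, 65.2 and 54.8 CPM, with shPDK1#1 replicate 2 closest to the shCtrl libraries. IER3, a survival factor (0.27, adjusted p = 1.24e-05), and KLF10, a TGF-beta early gene (0.29, adjusted p = 0.00886), rose, though 38.9% of the exon bases of IER3 lie opposite another gene. JUND was not called without shPDK1#1 replicate 3 (adjusted p = 0.0546), FOS without shCtrl replicate 2 or shPDK1#1 replicate 3 (adjusted p = 0.0958 and 0.0807) and KLF10 without shCtrl replicate 1 (adjusted p = 0.0709). Without shPDK1#1 replicate 2, 9 members fell, with JUNB (-0.23, adjusted p = 0.0327) added, and 2 rose.

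The phosphatases that switch off MAP kinases, together with the Sprouty and ERRFI1 feedback inhibitors, gave 2 rises and 2 falls among 20 tested. DUSP8, which acts on JNK and p38, was at 17.0, 19.1 and 15.5 CPM with shCtrl and 11.7, 10.5 and 12.1 CPM with shPDK1#1 (log2 fold change -0.59, SE 0.13, adjusted p = 0.00734). DUSP1, the early-response phosphatase, was at 63.8, 56.7 and 69.3 CPM and 45.8, 53.1 and 51.5 CPM (log2 fold change -0.33, SE 0.083, adjusted p = 0.0255). Both were lower in every shPDK1#1 library, and ERRFI1, an inhibitor of EGFR, was higher (0.19, adjusted p = 0.000674), as was IER3, which is on both lists. DUSP8 was not called without shCtrl replicate 2 (adjusted p = 0.0721) and DUSP1 without shCtrl replicate 1 or 3 or shPDK1#1 replicate 1 or 3 (adjusted p = 0.107, 0.181, 0.135 and 0.0730).

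ATF, CREB and JUN dimers bind the palindrome TGACGTCA, so the promoters of called early or feedback genes that hold it are shown. The 250 bases before the RefSeq start are given 5′ to 3′ on the strand of the gene, with TGACGTCA in capitals: DUSP8 at chr11:1572272-1572521, JUND at chr19:18281623-18281872 and DUSP1 at chr5:172771196-172771445, all on the minus strand of GRCh38.p14.
DUSP8: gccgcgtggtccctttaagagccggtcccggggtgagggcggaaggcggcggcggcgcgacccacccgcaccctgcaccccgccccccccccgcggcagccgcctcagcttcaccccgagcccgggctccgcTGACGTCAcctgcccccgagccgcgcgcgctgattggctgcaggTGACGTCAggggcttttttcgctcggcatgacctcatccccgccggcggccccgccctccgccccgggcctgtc
JUND: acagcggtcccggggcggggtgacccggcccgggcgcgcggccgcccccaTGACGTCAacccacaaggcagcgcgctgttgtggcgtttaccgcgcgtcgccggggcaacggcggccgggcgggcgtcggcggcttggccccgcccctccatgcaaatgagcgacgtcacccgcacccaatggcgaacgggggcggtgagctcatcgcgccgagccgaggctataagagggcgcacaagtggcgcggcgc
DUSP1: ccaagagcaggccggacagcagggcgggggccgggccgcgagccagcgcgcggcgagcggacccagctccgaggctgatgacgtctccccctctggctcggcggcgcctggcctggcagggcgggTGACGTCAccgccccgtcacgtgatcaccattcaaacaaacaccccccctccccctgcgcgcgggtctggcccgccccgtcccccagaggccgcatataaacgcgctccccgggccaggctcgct
DUSP8 holds 2 matches, 118 and 74 bases before the start, and JUND and DUSP1 hold 1 each. The 3 genes were chosen after their matches and values were seen. In the windows of 250 bases before to 50 after the start, TGACGTCA was in 10 of 160 genes that fell (6.25%), in 1 of 178 that rose (0.562%) and in 366 of all 10870 genes tested that had a window (3.37%). Both strands read alike, as the string is its own reverse complement. The AP-1 string TGANTCA, which TGACGTCA does not contain, was in 3.75% of the genes that fell, 8.43% of those that rose and 4.45% of all. Of the 8 called immediate early genes with a window, JUND was the 1 with TGACGTCA.

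The study took 6 genes, ATF3, BEAN1, C11orf96, CCN3, DUSP8 and NIM1K, as lower with both hairpins and higher in OSCs than in adherent cells. It used these same libraries, so their direction here is not independent evidence. At an adjusted p under 0.05, 3 of the 6 fell and 3 were not called. At an unadjusted p under 0.05, 5 of the 6 were lower. The test behind the study's own gene lists is not stated, so its threshold may differ. CCN3, a matricellular protein of the CCN family, was at 41.7, 45.9 and 44.7 CPM with shCtrl and 37.4, 32.2 and 28.4 CPM with shPDK1#1 (log2 fold change -0.44, SE 0.093, adjusted p = 0.00604). All 3 shPDK1#1 values were lower, with replicate 1 closest to shCtrl. C11orf96 had a log2 fold change of -0.58 (SE 0.17, adjusted p = 0.0624) and BEAN1 of -0.41 (SE 0.23, adjusted p = 0.432). NIM1K was at 1.75, 1.20 and 1.12 CPM and 0.871, 0.314 and 0 CPM, where 3 counts are worth 0.268 to 0.373 CPM (adjusted p = 0.159). CCN3 was not called without shPDK1#1 replicate 3 (adjusted p = 0.0809), while C11orf96 was called without shCtrl replicate 1 (adjusted p = 0.0394), with the replicate block (adjusted p = 0.0391) and with at least 10 counts in every library (adjusted p = 0.0499).

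The mitochondrial genome encodes 13 subunits of the respiratory chain, and 8 of these fell (against 1.44% of all genes tested) and 0 rose, with a median log2 fold change of -0.22. Several of these genes are above 1000 CPM, a level at which 38.0% of genes were called in either direction. MT-CO1, the catalytic subunit of cytochrome c oxidase, was at 9275, 8935 and 9730.2 CPM with shCtrl and 7706, 7004 and 8328 CPM with shPDK1#1 (log2 fold change -0.28, SE 0.041, adjusted p = 0.000133). MT-CYB, the cytochrome b of complex III, was at 1566, 1518 and 1678 CPM and 1342, 1282 and 1376 CPM (log2 fold change -0.25, SE 0.038, adjusted p = 0.000155). MT-ND5 of complex I was at 1446, 1352 and 1461 CPM and 1231, 1115 and 1288 CPM (log2 fold change -0.23, SE 0.043, adjusted p = 0.00228). In each of these the highest shPDK1#1 library was below the lowest shCtrl library, and shPDK1#1 replicate 2 was the lowest of all. MT-CO1 shares 36.6% of its sequence with the nuclear copy MTCO1P12.

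The complex I genes MT-ND1 (-0.22, adjusted p = 0.00428), MT-ND4 (-0.21, adjusted p = 0.0112), MT-ND4L (-0.23, adjusted p = 0.0127) and MT-ND6 (-0.25, adjusted p = 0.0178) and the ATP synthase gene MT-ATP6 (-0.17, adjusted p = 0.0203) fell too. MT-ND3 was the 1 gene above 0 (0.11, adjusted p = 0.452). Without shPDK1#1 replicate 2 the median was -0.16, and 5 genes fell, namely MT-CO1, MT-CYB, MT-ND1, MT-ND4 and MT-ND5, while MT-ND3 rose (0.19, adjusted p = 0.0408). Without shCtrl replicate 3 it was 5 that fell, and DESeq2 also called 5. MT-ND4 was not called without shCtrl replicate 1 or 3 (adjusted p = 0.0572 and 0.0821) and with DESeq2 (adjusted p = 0.125). MT-ND4L was not called without shCtrl replicate 3 or shPDK1#1 replicate 2 (adjusted p = 0.0860 and 0.0546) and with DESeq2 (adjusted p = 0.0871), MT-ND6 without shCtrl replicate 1 or shPDK1#1 replicate 2 (adjusted p = 0.209 and 0.0791) and with DESeq2 (adjusted p = 0.0767) and MT-ATP6 without shCtrl replicate 3 or shPDK1#1 replicate 2 (adjusted p = 0.179 and 0.0818).

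Summed over the 13 mRNAs, mitochondrial transcripts made up 3.04%, 2.97% and 3.22% of counts in the shCtrl libraries and 2.76%, 2.43% and 2.84% in the shPDK1#1 libraries, which did not overlap. The mitochondrial ribosomal RNAs made up 0.610%, 0.618% and 0.673% with shCtrl and 0.789%, 0.668% and 0.785% with shPDK1#1, where replicate 2 lay just below the highest shCtrl library. MT-RNR2, the large ribosomal RNA, was at 5659, 5737 and 6312 CPM with shCtrl and 7494, 6289.6 and 7443 CPM with shPDK1#1 (log2 fold change 0.26, SE 0.047, adjusted p = 0.00125).

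Nuclear genes of oxidative metabolism did not pass the test. Of 72 tested nuclear genes of the respiratory chain, 0 were called, with 13 at an unadjusted p under 0.05, all of them higher, among them NDUFA5 of complex I (log2 fold change 0.28, adjusted p = 0.125) and COX6B1 of complex IV (0.17, adjusted p = 0.162), and with a median of 0.042. DESeq2 called 0 of them. Without shPDK1#1 replicate 2, edgeR called 4 higher, chosen for mention after their values were seen, namely NDUFA5 (0.38, adjusted p = 0.0164), UQCRB of complex III (0.21, adjusted p = 0.0194) and the ATP synthase subunits ATP5PB (0.17, adjusted p = 0.0453) and ATP5MG (0.15, adjusted p = 0.0417). NDUFA5 and UQCRB were also called after an adjustment for GC content and length. Of 17 tested genes of the TCA cycle 0 were called by edgeR and 0 by DESeq2, with 1 at an unadjusted p under 0.05, CS, which makes citrate (log2 fold change 0.11, adjusted p = 0.148).

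Of 78 tested cytosolic ribosomal protein genes, 28 rose (against 1.62% of all genes tested) and 0 fell, and 77 of the 78 had a log2 fold change above 0, with a median of 0.11. The share called depends on the level. It was 7.54% in either direction for genes at 100 to 1000 CPM and 38.0% for those over 1000 CPM. RPL7, RPS27A and RPL32 lie in these classes. RPL7 was at 1006, 1017 and 1024 CPM with shCtrl and 1236, 1126 and 1193 CPM with shPDK1#1 (log2 fold change 0.22, SE 0.034, adjusted p = 0.000216). RPS27A was at 549, 571 and 595 CPM and 671, 654 and 652 CPM (log2 fold change 0.20, SE 0.037, adjusted p = 0.00163). RPL32 was at 471, 478 and 481 CPM and 561, 539.6 and 533 CPM (log2 fold change 0.19, SE 0.036, adjusted p = 0.00212). The shifts were small, yet the 3 genes kept the groups apart, as did 59 of the 78 (against 19.3% of all genes tested). The summed share of ribosomal protein mRNA was 5.70%, 5.86% and 5.91% of counts with shCtrl and 6.26%, 6.31% and 6.20% with shPDK1#1. EEF1A1, which carries aminoacyl-tRNA to the ribosome and had the highest level of the called genes, was at 9766, 10012 and 10292 CPM and 10999, 10745 and 11344 CPM (log2 fold change 0.14, SE 0.027, adjusted p = 0.00312).

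The count of 28 fell to 8 without shCtrl replicate 1, to 16 without shCtrl replicate 2, to 14 without shPDK1#1 replicate 1 and to 13 without shPDK1#1 replicate 3, and was 30 without shPDK1#1 replicate 2 and 37 with DESeq2. The median of the list stayed between 0.089 and 0.13 in the 14 alternatives. Many of these genes have processed pseudogenes, and 23.1% of the sequence of RPL7 occurs in such copies. After the adjustment for GC content and length 31 of them rose.

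**Figure D3:**
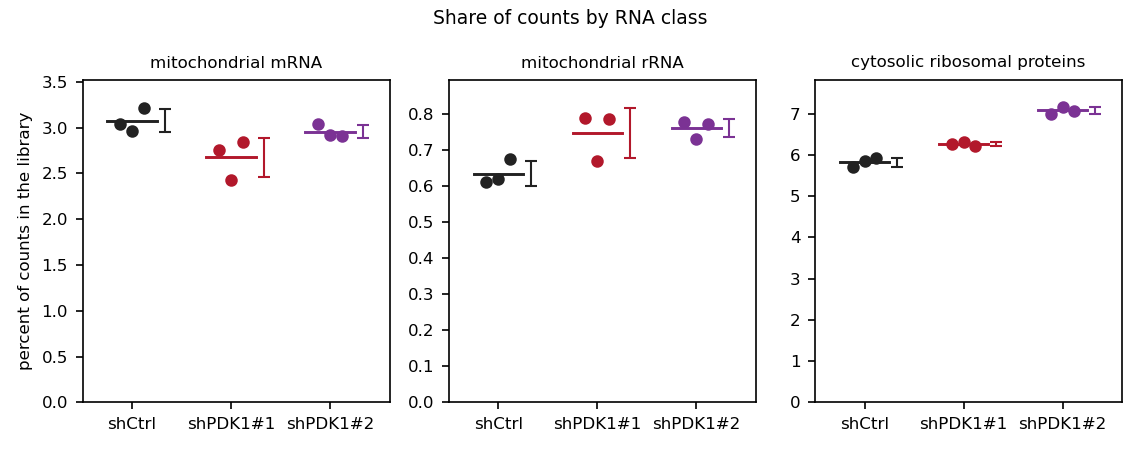
Percent of all counts in a library (y) for the 13 mitochondrial mRNAs, the mitochondrial ribosomal RNAs and the cytosolic ribosomal protein mRNAs, by group (x), with 1 point per library, a line at the mean of 3 and a bar for its SD. Mitochondrial mRNA was 2.43% to 2.84% with shPDK1#1 and 2.97% to 3.22% with shCtrl, and ribosomal protein mRNA was higher with shPDK1#1 than with shCtrl in all 3 libraries.

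The extracellular matrix changed in both directions. Of 29 tested collagens and matrix genes, 5 were called higher, POSTN included, and 1 lower (median log2 fold change 0.036). Besides COL3A1, the basement membrane chain COL4A1 went from 1014, 963 and 949 to 1187, 1206 and 1162 CPM (log2 fold change 0.28, SE 0.034, adjusted p = 7.04e-06), and its partner COL4A2 (0.15, adjusted p = 0.0130) and the fibril-associated COL12A1 (0.24, adjusted p = 0.00376) rose too. COL7A1, the anchoring fibril collagen, fell from 492, 497 and 471 to 368, 431 and 398 CPM (log2 fold change -0.29, SE 0.046, adjusted p = 0.000387). All 3 shPDK1#1 libraries were on one side of the shCtrl libraries in each. POSTN, the matricellular protein periostin, had 3, 0 and 3 counts in the shCtrl libraries and 18, 22 and 19 with shPDK1#1. It passed the filter on low counts only through the libraries with a PDK1 hairpin, so its call is no support for the list, and as its shCtrl libraries were at or under 3 counts, no fold is given. COL4A2 was not called without shCtrl replicate 2 or 3 (adjusted p = 0.0899 and 0.0686), and COL12A1 without shPDK1#1 replicate 3 (adjusted p = 0.0687).

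COL3A1 and POSTN are also fibroblast genes. Of 10 fibroblast markers, 6 were tested and 2 rose, COL3A1 and the PDGF receptor PDGFRB, which went from 3.18, 2.21 and 2.86 to 5.97, 4.71 and 4.56 CPM (log2 fold change 0.88, SE 0.22, adjusted p = 0.0219). The summed level of the 10 was 299 to 314 CPM with shCtrl and 329 to 349 CPM with shPDK1#1, MFAP5 was at 0, and PI16 and THY1 had at most 3 counts in any library. PDGFRB was not called without shCtrl replicate 2 or 3 or shPDK1#1 replicate 1 (adjusted p = 0.136, 0.0534 and 0.104) and with only the 6 compared libraries in the fit (adjusted p = 0.0723). Of 6 pericyte markers PDGFRB rose and the proteoglycan CSPG4 fell (-0.24, adjusted p = 0.00572), and their summed level was 416 to 428 CPM with shCtrl and 345 to 380 CPM with shPDK1#1. The part of such cells or states in the matrix genes was not tested. CSPG4 was not called without shPDK1#1 replicate 3 (adjusted p = 0.0659).

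Of 20 tested matrix metalloproteinases and related inhibitors, 4 rose and 3 fell. MMP1, the interstitial collagenase and the most abundant of them, was at 1715, 1696 and 1774 CPM with shCtrl and 2623, 2569 and 2606 CPM with shPDK1#1 (log2 fold change 0.59, SE 0.030, adjusted p = 5.32e-13). Its inhibitor TIMP1 was at 395, 388 and 411 CPM and 482, 492 and 489.5 CPM (log2 fold change 0.29, SE 0.037, adjusted p = 1.24e-05). MMP1 and TIMP1 were well apart between the groups, as was MMP9, which fell as given above. The stromelysin MMP10 (0.26, adjusted p = 0.00789) and the collagenase MMP13 (0.54, adjusted p = 0.0182) rose, while the aggrecanase-type protease ADAMTS1 (-0.50, adjusted p = 0.000674) and the matrix-bound inhibitor TIMP3 (-0.19, adjusted p = 0.00212) fell. MMP10 was not called without shCtrl replicate 1 or shPDK1#1 replicate 3 (adjusted p = 0.0848 and 0.0754), and MMP13 without shCtrl replicate 2 or 3 or shPDK1#1 replicate 2 or 3 (adjusted p = 0.0900, 0.0935, 0.0526 and 0.0909). The list had 3 rises and 4 falls without shPDK1#1 replicate 2, with the membrane-type protease MMP14 (-0.12, adjusted p = 0.0402) added to the falls. MMP9 is also on the list of 6 osteoclast markers, whose summed level was 51.6 to 57.1 CPM with shCtrl and 34.5 to 42.7 CPM with shPDK1#1, with OCSTAMP and CALCR at 0 and ACP5 at 3 counts or fewer. Most of that sum is MMP9 itself (46.7, 49.9 and 48.6 CPM with shCtrl and 28.7, 37.0 and 30.1 CPM with shPDK1#1), so its fall restates that of MMP9.

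Among 25 tested integrin and laminin genes 1 rose and 4 fell. ITGA11, the alpha subunit of a receptor for fibrillar collagen, was at 49.9, 43.8 and 50.3 CPM with shCtrl and 68.4, 75.1 and 72.4 CPM with shPDK1#1 (log2 fold change 0.59, SE 0.072, adjusted p = 9.38e-06). ITGB8, which activates latent TGF-beta, was at 31.0, 35.6 and 31.8 CPM and 21.1, 21.8 and 25.2 CPM (log2 fold change -0.53, SE 0.099, adjusted p = 0.00223). ITGB3, the beta subunit of the vitronectin receptor, was at 30.8, 31.9 and 31.4 CPM and 21.8, 23.1 and 22.9 CPM (log2 fold change -0.47, SE 0.097, adjusted p = 0.00501). The groups did not overlap in these 3 genes, but 32.4% of the sequence of ITGB3 is shared with other annotated genes. ITGA6 (-0.20, adjusted p = 0.00250) and ITGA2 (-0.16, adjusted p = 0.0198), laminin and collagen receptors, fell by little, and ITGA2 was not called without shCtrl replicate 1, 2 or 3 or shPDK1#1 replicate 2 or 3 (adjusted p = 0.102, 0.0741, 0.0580, 0.0706 and 0.0574). ITGA3 (-0.16, adjusted p = 0.0313) fell in place of ITGA2 without shPDK1#1 replicate 2.

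Of 24 tested TGF-beta targets, 5 rose and 2 fell (median 0.067). SMAD7, the inhibitory SMAD that the pathway itself induces, was at 59.2, 58.5 and 49.7 CPM with shCtrl and 70.2, 74.4 and 73.0 CPM with shPDK1#1 (log2 fold change 0.37, SE 0.070, adjusted p = 0.00212), and ID1, a target of BMP signals, was at 107, 109 and 121 CPM and 123, 148 and 138 CPM (log2 fold change 0.29, SE 0.060, adjusted p = 0.00577). The lowest shPDK1#1 library was above the highest shCtrl library in both. COL1A1 (0.19, adjusted p = 0.00604), TGIF1 (0.25, adjusted p = 0.0178) and BHLHE40 make up the 5, and LTBP2 (-0.26, adjusted p = 0.00687) and CCN1 (-0.33, adjusted p = 0.0101) fell. The list mixes induced targets with regulators: SMAD7 and TGIF1 restrain the pathway and BHLHE40 also answers to hypoxia. ID1 was not called without shCtrl replicate 1 or 2 (adjusted p = 0.0605 and 0.0506), TGIF1 without shCtrl replicate 1 or shPDK1#1 replicate 1 or 3 (adjusted p = 0.151, 0.0647 and 0.115), LTBP2 without shCtrl replicate 3 (adjusted p = 0.0624) and CCN1 without shCtrl replicate 2 or 3 (adjusted p = 0.0573 and 0.0571). CCN2, a relative of CCN1, was called lower as well without shPDK1#1 replicate 2 (-0.38, adjusted p = 0.0359), which gave 5 rises and 3 falls.

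Of 19 tested YAP and SRF targets, the actin-binding CNN2 (0.38, adjusted p = 0.00330) and VCL (0.18, adjusted p = 0.00836) rose and CCN1 fell, which left 1 call without shCtrl replicate 2 or 3, and VCL was not called without shCtrl replicate 2 or 3 or shPDK1#1 replicate 3 (adjusted p = 0.0613, 0.0535 and 0.0846). CCN2 is on this list too, which gave 2 rises and 2 falls without shPDK1#1 replicate 2. Of 27 tested Notch and Wnt genes, the Notch target HES1 went from 27.3, 27.0 and 26.1 to 33.2, 35.8 and 38.9 CPM (log2 fold change 0.43, SE 0.085, adjusted p = 0.00351) and HEY1 rose (0.16, adjusted p = 0.0433), while the Notch ligand JAG1 (-0.17, adjusted p = 0.0154) and the Wnt inhibitor DKK1 (-0.35, adjusted p = 0.00414) fell. HES1 and DKK1 were separate between groups and called in all 14 alternatives. JAG1 was not called without shCtrl replicate 1, 2 or 3 or shPDK1#1 replicate 3 (adjusted p = 0.0548, 0.0958, 0.0510 and 0.122), and HEY1 without shCtrl replicate 1, 2 or 3 or shPDK1#1 replicate 1, 2 or 3 (adjusted p = 0.173, 0.169, 0.0735, 0.0631, 0.0872 and 0.118) and with normalization by library size alone (adjusted p = 0.0608) and with RLE factors (adjusted p = 0.0510) and with only the 6 compared libraries in the fit (adjusted p = 0.0604). The list had 1 rise and 2 falls without shPDK1#1 replicate 2.

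Of 20 tested genes of the unfolded protein response 4 rose and 0 fell, with a median of 0.11 and 18 above 0. These were the chaperones HSPA5 (467, 458 and 462 to 512, 519 and 521 CPM, log2 fold change 0.16, SE 0.034, adjusted p = 0.00649), HYOU1 (0.21, adjusted p = 0.00541) and CANX (0.15, adjusted p = 0.0139) and the isomerase PDIA3 (0.15, adjusted p = 0.0174). HSPA5 was higher in every shPDK1#1 library. CANX was not called without shCtrl replicate 2 or 3 or shPDK1#1 replicate 1 or 3 (adjusted p = 0.0960, 0.0576, 0.0951 and 0.0969) and PDIA3 without shCtrl replicate 1 or 2 or shPDK1#1 replicate 1 or 3 (adjusted p = 0.0635, 0.116, 0.0628 and 0.102), so that 2 of the 4 were left in some of these. It was 5 that rose without shPDK1#1 replicate 2, with the chaperone HSP90B1 (0.14, adjusted p = 0.0279) added. Of 23 tested ATF4 targets 2 rose and 2 fell. These were DDIT4, the asparagine synthetase gene ASNS (0.47, adjusted p = 0.00498), PPP1R15A, which directs dephosphorylation of eIF2-alpha (-0.28, adjusted p = 0.00687), and the cystine transporter SLC7A11 (-0.27, adjusted p = 0.00725). ASNS was not called without shCtrl replicate 1 or 2 (adjusted p = 0.0516 and 0.0613), and 43.5% of its sequence is shared with other annotated genes. PPP1R15A was not called without shCtrl replicate 1 or shPDK1#1 replicate 3 (adjusted p = 0.0514 and 0.0555).

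Of 23 tested genes of cholesterol synthesis 2 rose, DHCR7, which completes cholesterol synthesis (0.23, adjusted p = 0.00826), and INSIG1, which retains the sterol sensor in the endoplasmic reticulum (0.25, adjusted p = 0.0110). DHCR7 was not called without shCtrl replicate 2 (adjusted p = 0.0958) and INSIG1 without shCtrl replicate 3 or shPDK1#1 replicate 3 (adjusted p = 0.0623 and 0.110). Of 21 tested antioxidant genes catalase (CAT, 0.28, adjusted p = 0.0161) rose, and the mitochondrial superoxide dismutase SOD2 (-0.30, adjusted p = 0.00785) and SLC7A11 fell. CAT was not called without shCtrl replicate 3 or shPDK1#1 replicate 1 (adjusted p = 0.128 and 0.0771) and SOD2 without shCtrl replicate 2 (adjusted p = 0.0847).

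Cell cycle genes showed few calls. Of 30 tested genes of G1/S and DNA replication 22 were below 0, with a median of -0.072, and 1 was called, the activator E2F2 (-0.53, adjusted p = 0.0276). DESeq2 called 3, with the replication polymerase POLE and the cyclin CCNE2 added, and the GC and length adjustment 4, with POLE, CCNE2 and the thymidylate synthase gene TYMS added, all of them lower. E2F2 was not called without shCtrl replicate 1 or 2 or shPDK1#1 replicate 2 or 3 (adjusted p = 0.0737, 0.175, 0.0825 and 0.109). Of 30 tested genes of mitosis 0 were called by edgeR and 0 by DESeq2, with 2 lower at an unadjusted p under 0.05 (median -0.014), and the GC and length adjustment called 1 lower, the cyclin CCNA2 (-0.15, adjusted p = 0.0420). Of 26 tested apoptosis genes and p53 targets, the cell cycle inhibitor CDKN1A was the 1 called, at 274, 270.0 and 262 CPM with shCtrl and 222, 227 and 215 CPM with shPDK1#1 (log2 fold change -0.28, SE 0.043, adjusted p = 0.000170). Every shPDK1#1 library was lower, and CDKN1A was called in all 14 alternatives.

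Of 19 tested stemness markers, 1 was called, the chemokine receptor CXCR4, at 9.76, 10.9 and 7.45 CPM with shCtrl and 13.8, 15.9 and 14.8 CPM with shPDK1#1 (log2 fold change 0.65, SE 0.17, adjusted p = 0.0287). The groups did not overlap, although CXCR4 was not called without shCtrl replicate 1 or 3 or shPDK1#1 replicate 2 or 3 (adjusted p = 0.0847, 0.168, 0.0762 and 0.0969). MYC (log2 fold change -0.26, adjusted p = 0.473), CD44 (-0.05, adjusted p = 0.528) and KLF4 (0.13, adjusted p = 0.636) were not called. The full list held 26 markers, so some were not tested. NANOG and LIN28A were at 0, and THY1 and ALDH1A1 had at most 3 counts in any shCtrl or shPDK1#1 library. Without shPDK1#1 replicate 2 the 1 called marker was the transporter ABCG1, which was lower (-0.56, adjusted p = 0.0260). Of 14 tested osteoblast lineage genes COL1A1 was the 1 called, and SPP1, which encodes osteopontin, was also called higher without shPDK1#1 replicate 2 (0.12, adjusted p = 0.0299).

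Of 25 tested interferon-stimulated genes and 15 tested genes of antigen presentation, 0 were called by edgeR and 0 by DESeq2. Without shPDK1#1 replicate 3, edgeR called IFIT3, an interferon-induced gene, lower (-1.36, adjusted p = 0.0427). At an unadjusted p under 0.05, 2 of the interferon genes were lower, and 1 gene of antigen presentation was higher and 1 lower. Among 18 tested NF-kB and cytokine genes the inhibitor TNFAIP3 rose (0.34, adjusted p = 0.0189). It was not called without shCtrl replicate 1 or 2 or shPDK1#1 replicate 1 or 3 (adjusted p = 0.132, 0.0595, 0.0933 and 0.0786). Of 8 epithelial markers 4 were tested and the keratin gene KRT18 rose (0.19, adjusted p = 0.00716), with CDH1 and KRT14 at 0, and the summed level of the 8 was 335 to 356 CPM with shCtrl and 382 to 399 CPM with shPDK1#1. KRT18 was not called without shCtrl replicate 1 or 2 (adjusted p = 0.0633 and 0.0552).

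Both hairpins were compared with the same 3 shCtrl libraries, so their values are given side by side and the difference between them was tested directly. Between shPDK1#2 and shPDK1#1, 2373 genes differed (16.3% of those tested), of which 945 were higher (6.47%) and 1428 lower (9.78%) with shPDK1#2. Several rises were close with the 2 hairpins. The log2 fold change of DDIT4 was 1.21 with shPDK1#1 and 1.25 with shPDK1#2 (difference 0.04, SE 0.042, adjusted p = 0.541), and that of ADM 0.83 and 0.70 (difference -0.13, SE 0.060, adjusted p = 0.154). CYP1B1 (1.04 and 1.13, adjusted p = 0.420), NNMT (0.95 and 0.88, adjusted p = 0.721), STC2 (0.73 and 0.62, adjusted p = 0.152), ARRDC3 (0.69 and 0.71, adjusted p = 0.912), IGF2 (1.24 and 1.39, adjusted p = 0.177) and VEGFA (0.39 and 0.29, adjusted p = 0.220) did not pass the test of a difference, which does not show that the hairpins act alike.

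Other rises differed between the hairpins by that test. C2CD4A had log2 fold changes of 0.82 with shPDK1#1 and 0.24 with shPDK1#2 (adjusted p of the difference = 0.000556). HILPDA (0.70 and 0.44, adjusted p = 0.0101) and ANKRD37 (0.89 and 0.52, adjusted p = 0.0447) also rose less with shPDK1#2. LOX rose more with shPDK1#2 (0.50 and 0.74, adjusted p = 0.00111). MMP1 was at 2623, 2569 and 2606 CPM in the shPDK1#1 libraries and 1731, 1699 and 1743 CPM with shPDK1#2, within reach of the shCtrl libraries (log2 fold change -0.0031, difference -0.59, adjusted p = 1.01e-13). SLC2A3 was at 184, 178 and 198 CPM with shPDK1#2 (0.04, difference -0.47, adjusted p = 3.1e-08), and HK2 at 135, 138 and 139 CPM (-0.03, difference -0.46, adjusted p = 3.18e-08). With shPDK1#2 these genes were near their shCtrl levels. TIMP1 (0.29 and 0.02, adjusted p of the difference = 5.65e-06) behaved in the same manner, while SLC2A1 rose with both (0.31 and 0.22, adjusted p of the difference = 0.0819).

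In a few genes the hairpins moved in opposite directions, and the difference passed the test. BHLHE40 was at 207, 207 and 207 CPM with shPDK1#2, below all shCtrl libraries, and above them with shPDK1#1 (0.51 and -0.27, adjusted p of the difference = 9.01e-14). CXCR4 (0.65 and -0.62, adjusted p = 7.64e-06), TNFAIP3 (0.34 and -0.43, adjusted p = 2.57e-07), INSIG1 (0.25 and -0.24, adjusted p = 5.79e-07), PFKFB3 (0.18 and -0.39, adjusted p = 5.86e-11) and MMP10 (0.26 and -1.47, adjusted p = 6.91e-16) did likewise. The mitochondrial gene MT-CO1 fell with shPDK1#1 and stood at -0.05 with shPDK1#2 (adjusted p of the difference = 0.000274), and MT-ND1 at -0.02 (adjusted p = 0.00232). MT-CYB was lower with both (-0.25 and -0.19, adjusted p of the difference = 0.343).

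Several early genes and candidates fell less with shPDK1#1 than with shPDK1#2. ATF3 was at 9.41, 7.68 and 8.85 CPM with shPDK1#2 (-0.49 and -1.87, difference -1.38, adjusted p = 3.07e-09). KLF2 (-0.46 and -1.64, adjusted p = 2.67e-10), FOSB (-0.44 and -1.53, adjusted p = 8.59e-09), JUN (-0.32 and -0.91, adjusted p = 1.59e-10), JUND (-0.30 and -1.12, adjusted p = 1.31e-09), CCN3 (-0.44 and -1.55, adjusted p = 2.3e-08) and CDKN1A (-0.28 and -1.06, adjusted p = 1.55e-12) showed the same order. NIM1K had 7, 3 and 0 counts with shPDK1#1 and 6, 1 and 7 with shPDK1#2. These counts are too low to place it in this order, and no fold is given. COL3A1 rose less with shPDK1#1 than with shPDK1#2, where it was at 90.4, 82.6 and 86.2 CPM (2.02 and 4.17, adjusted p of the difference = 2.1e-15).

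**Figure D4:**
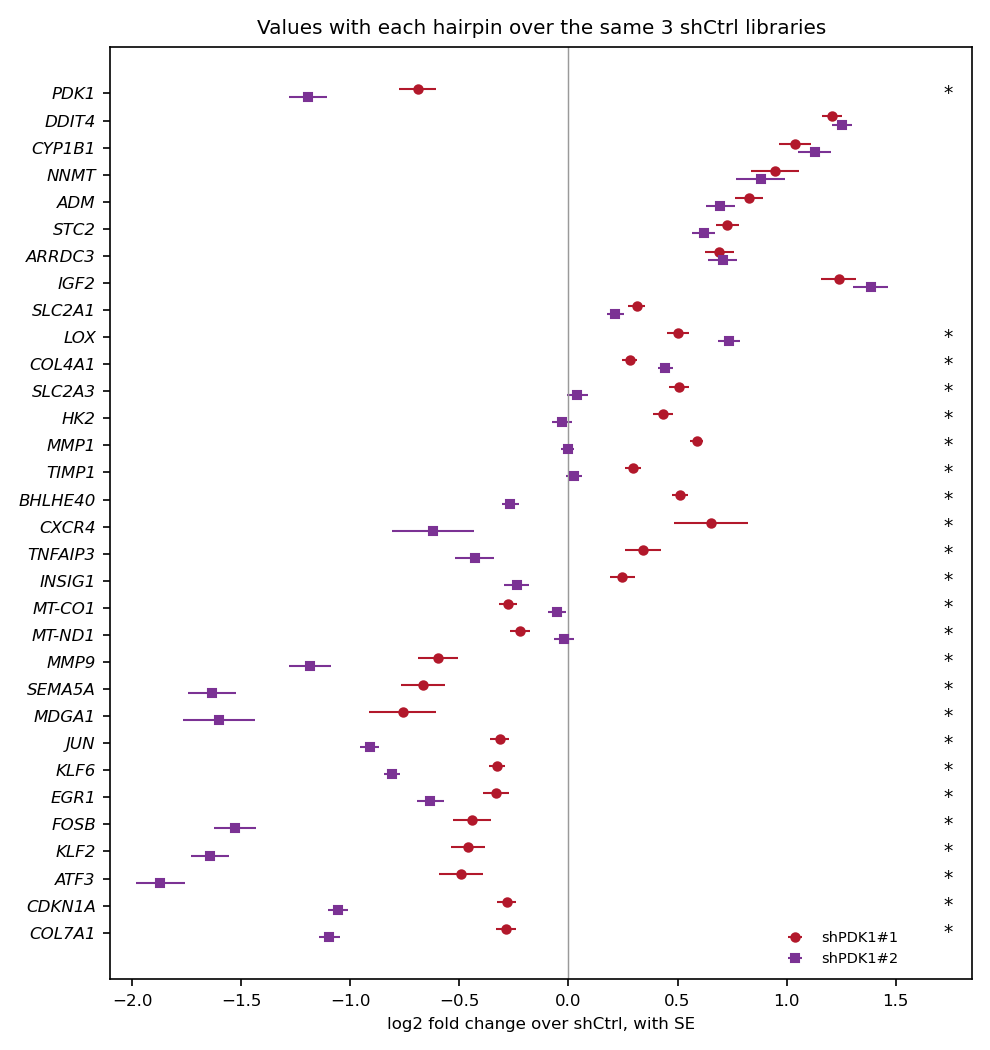
Log2 fold change over the same 3 shCtrl libraries (x) of genes described in the text and a few of the largest changes, with shPDK1#1 (red circles) and shPDK1#2 (purple squares), and bars for the SE. A star marks an adjusted p under 0.05 for the difference between the hairpins. DDIT4, CYP1B1, NNMT, ADM, STC2, ARRDC3, IGF2 and SLC2A1 carry no star, and BHLHE40, CXCR4, TNFAIP3 and INSIG1 lie on opposite sides of 0.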

How the data were processed

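RNA from OSCs with shCtrl, shPDK1#1 or shPDK1#2, with 3 libraries each, was sequenced as read pairs. The authors trimmed the reads (Trimmomatic 0.39, FastQC 0.12.1), aligned them to GRCh38.p14 (STAR 2.7.11a) and deposited RSEM 1.3.3 expected counts per gene, per the labels, the submitters' processing notes and the values. Strandedness is not given in the sources used here. Reads are not marked by molecule, so counts can include copies. Of the values, 6.92% were not whole, and all were rounded to whole numbers. Library totals were 8073103 to 11256578, every column matched a sample label, and 0 columns were unmapped. Gene names came from GENCODE 44 (62700 of 62700 IDs matched). The table of OSCs and adherent cells without a hairpin was not used here.

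Genes were filtered with filterByExpr and normalized by TMM (factors 0.993 to 1.01). Groups were taken from the labels. The 9 libraries of the 3 groups were fitted together with edgeR 4.0.16 (quasi-likelihood test, two-sided) in R 4.3.3, so that they share an estimate of the spread, and shPDK1#1 was contrasted with shCtrl and with shPDK1#2. P-values were adjusted by Benjamini-Hochberg over all 14597 genes tested, and a gene was called at an adjusted p under 0.05. For a single gene an exact permutation test of 3 against 3 libraries cannot go below 0.10, so it was not used. CPM values use TMM library sizes, and 3 counts are the floor under which no fold is given. Fold changes are those of the edgeR fit with its default prior count. A prior count of 2 went into the log values used to check the pairing of replicates and to set the GC and length offsets. Sequence was called shared where 75-base stretches of the exons of a gene also occur in another gene. Tested on simulated data with the size of this comparison, the fit recovered 52 of 65 genes changed by 1.5-fold and 66 of 67 changed by 2-fold among 14268 genes, with 11 unchanged genes called. The changed genes were drawn only from those above a set mean count, so recovery at low counts was not measured. The simulated libraries also held no trend on GC content, unlike the real ones.

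The members, the 28 pathway lists and the 8 marker lists were chosen with earlier results of these data known. Named genes are PDK1 to PDK4, the study's 6 candidates, the 12 largest rises and falls among called genes with at least 10 CPM and groups that did not overlap, the 5 called genes with the highest level, and up to 4 called members per list with the smallest p. VEGFA, EGLN3, PFKFB3, FOS, FOSB, EGR1, JUND, KLF10, ENO2, PGK1, MT-ATP6, MT-ND4L, MT-ND6, MMP10, MMP13, TIMP3, LTBP2, TGIF1, COL12A1, COL4A2, ITGA2, PDGFRB, CSPG4 and KRT18 were added after their values were seen, so that every called member of those lists is named, and so were POSTN, the list members given as not called and those called only in an alternative. Promoters are RefSeq sequences of GRCh38.p14. Alternatives were DESeq2 1.42.0, library size alone, RLE factors, other filters, only the compared libraries, a replicate block, each library left out and, chosen after seeing the data, offsets that remove each library's trend on GC content and length. Python 3.11.15 with pandas 2.3.3 and matplotlib 3.10.9 made the summaries and plots.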

Additional observations from a re-analysis of the deposited data

How the results depend on the processing

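The count of 446 genes called was 685 with offsets for GC content and length, an adjustment chosen after seeing the data, of which 442 were among the 446. It ranged from 245 to 508 when 1 library was left out (270 and 281 without shCtrl replicates 1 and 2, 245 without shPDK1#1 replicate 3). Under the other alternatives it was 416 to 578. DESeq2 called 530, of which 425 were among the 446, and edgeR without the filter on low counts called 578, of which 435 were. Of the 446 genes, 1 changed sign without shCtrl replicate 2 and 0 did in each of the other alternatives. The replicate numbers did not clearly pair the samples, as deviations of libraries with the same number correlated with r from -0.052 to 0.095. The highest value was that of shPDK1#1 replicate 2 with shPDK1#2 replicate 2. Deviations of both these libraries also correlated with GC content (r = 0.57 and 0.42), and whether they shared a batch was not tested. The fit with the replicate number as a block gave 507 calls, 441 of them among the 446. PDK1 was called in all alternatives, with a log2 fold change from -0.64 to -0.71. The count of 2373 between the hairpins was 1719 to 2325 when 1 library was left out and 2128 to 2842 otherwise. Among named genes, 1774 values were counted as unchanged, 166 kept the direction and lost the call, 3 gained it and 0 values of called genes reversed. A change of sign in a gene that was not called was counted as unchanged. Of the counts for gene lists, 345 stayed within 1.5 times and 47 did not, for which the cause was not tested. Depth limits genes under 10 CPM, where the smallest called change was 0.60 on the log2 scale. In the simulation, which changed only genes above a set mean count, 1.5-fold changes were missed in 13 of 65 genes.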

Other observations

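The genes that follow were picked with their values in view and stand for themselves, not for a pathway. Besides IGF2, genes for IGF-binding proteins, whose products carry IGFs outside the cell, were called, with log2 fold changes of 0.22 (adjusted p = 0.000717) for IGFBP3, of 0.38 (adjusted p = 7.87e-05) for IGFBP4 and of 0.57 (adjusted p = 1.64e-12) for IGFBP5. IGFBP5 was at 1276, 1229.5 and 1272 CPM with shCtrl and 1840.1, 1887 and 1869 CPM with shPDK1#1, and the groups did not overlap. PPP1R3C, a subunit that targets protein phosphatase 1 to glycogen, was at 3.84, 4.42 and 5.72 CPM with shCtrl and 10.8, 13.4 and 13.5 CPM with shPDK1#1 (log2 fold change 1.45, SE 0.17, adjusted p = 6.51e-06). Its relative PPP1R3B (0.30, adjusted p = 0.00312) and the glycogen phosphorylase PYGL (0.28, adjusted p = 0.000216) rose by less. The libraries of the groups were apart in PPP1R3C.

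The minor collagen IV chains COL4A5 (0.33, adjusted p = 0.00553) and COL4A6 (0.66, adjusted p = 3.87e-05) rose with COL4A1 and COL4A2, whereas NID1 (-0.43, adjusted p = 1.28e-06), which links laminin to collagen IV, and HSPG2 (-0.44, adjusted p = 5.22e-05), which encodes perlecan, fell. HSPG2 was at 232, 230.2 and 221 CPM with shCtrl and 159, 184 and 160.0 CPM with shPDK1#1. Every shPDK1#1 library was below every shCtrl library for HSPG2. STC1, a relative of STC2, rose with shPDK1#1 (0.21, adjusted p = 0.00319) and was at -0.56 with shPDK1#2 (adjusted p of the difference between hairpins = 6.07e-13). BHLHE41, a relative of BHLHE40, rose (0.41, adjusted p = 0.00130). Among cell cycle genes outside the list, E2F3 (-0.52, adjusted p = 0.000146) and the cyclin CCND1 (-0.16, adjusted p = 0.00312) fell, and the ephrin receptor EPHA2 fell too (-0.37, adjusted p = 0.00330). The translation factor PABPC1, which binds poly(A) tails, rose with the ribosomal protein genes (0.14, adjusted p = 0.00705).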
